A study of Homo sapiens with 6 samples.

Results

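The HOX genes of the clusters HOXA, HOXB, HOXC and HOXD were examined in NSCLC cell lines with and without knockdown of the nuclear lncRNA MALAT1. Members were all rows of the gene table whose symbol begins with HOXA, HOXB, HOXC or HOXD and a digit, together with HOTAIR, HOTTIP and HOTAIRM1. This gave 46 of 46427 genes, of which 39 are protein-coding (11 in HOXA, 10 in HOXB, 9 in HOXC and 9 in HOXD). The 7 noncoding members are HOTAIRM1, HOXA10-HOXA9, HOXA10-AS, HOXA11-AS and HOTTIP in HOXA, and HOTAIR and HOXC13-AS in HOXC. The rule uses symbols and no measured value, though it was chosen with earlier results of these data known.

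HOX genes encode homeodomain transcription factors that tell cells of the embryo where they lie along the head-to-tail axis and the limbs. Within a cluster the genes are numbered by paralogue group, and genes at the HOX1 end are switched on earlier and further forward than genes at the HOX13 end, a property called collinearity. Polycomb complexes keep unused stretches of a cluster silent, Trithorax (MLL) complexes keep used stretches active, and retinoic acid induces the genes of the HOX1 end first. In the developing lung the genes of the middle paralogue groups, HOXA5 and HOXB5 among them, are used in the mesenchyme, and adult cells and tumours keep position-dependent HOX patterns.

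Total RNA was sequenced from 6 cultures, a control and a si-MALAT1 culture of each of H460, H1299 and A549. H460 is a large cell carcinoma line, H1299 an NSCLC line from a lymph node metastasis and A549 an adenocarcinoma line. The labels give the control cells as not treated, and the si-MALAT1 cells were transfected with an siRNA against MALAT1, so transfection itself is not matched unless the sequenced control was the si-Control culture, which the sources used here do not settle. Each cell line is a single established line with 1 library per condition.

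Between 42506818 and 68515992 reads per library were assigned to genes. MALAT1 held 93747 to 407551 reads in the control libraries and 14447 to 47935 reads in the si-MALAT1 libraries, and it was lower after si-MALAT1 in 3 of 3 cell lines. Its log2 fold change over the cell lines was -2.72, with an adjusted p of 0.0542 in edgeR's quasi-likelihood test paired by cell line. The adjusted p was 0.0381 with the filter on low counts set by treatment group, and over all alternatives it ranged from 4.39e-54 with DESeq2 to 1 without pairing. The keratin genes KRT8 and KRT18 were present in all 6 libraries and the leukocyte genes PTPRC, CD3E and MS4A1 had 0 reads in all 6. The epithelial genes EPCAM and CDH1 were low in H460 and H1299, at 23 to 73 and 2 to 13 reads, and KRT19 had 21 and 17 reads in H1299. Of the fibroblast genes, COL3A1 had 4961 and 4300 reads in H460, 1961 and 1831 in A549 and 0 and 22 in H1299. COL1A1 had 38 to 472 reads and DCN at most 30. The endothelial genes PECAM1, VWF and CDH5 had at most 33. Of the lung lineage genes, SFTPB, SFTPA1 and SCGB1A1 had 0 reads throughout and NKX2-1 had 28 and 30 reads in H1299 and 0 elsewhere. NAPSA had 12 to 131 reads in all 6 libraries, with 76 and 131 in A549, and SFTPC had at most 11. CDKN2A, which H460 and A549 are known to lack, had 0 reads in these lines and 2938 and 2679 reads in H1299.

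On GRCh38 the members of HOXA span chr7:27092993-27207259 (114.3 kb) and those of HOXB chr17:48528526-48728750 (200.2 kb). The members of HOXC span chr12:53935328-54056030 (120.7 kb) and those of HOXD chr2:176087487-176190907 (103.4 kb). Start sequences from RefSeq on GRCh38.p14, 250 bases before to 50 bases after a start, matched 23 of the 46 members and gave 30 windows of 300 bases. The windows of members held a median of 21.5 CpG dinucleotides against 14 over all 35116 windows. Of the windows below, those of HOXC4, HOXA11 and HOXA13 are shown because they overlap the window of a neighbouring member. HOXC4 and HOXC5 have the same window (chr12:54016638-54016937, plus strand), since the annotation begins HOXC4, HOXC5 and HOXC6 at the same base. HOXA11 (chr7:27185183-27185482, minus strand) shares 275 of the 300 bases with the window of HOXA11-AS, which starts 176 bases away on the other strand. HOXA13 (chr7:27200042-27200341, minus strand) shares 171 bases with the window of HOTTIP, which starts 330 bases away on the other strand. HOXA9 (chr7:27165488-27165787, minus strand) is shown because it holds both core motifs searched and because its reads separated A549 from the other lines. Capitals mark the TATA box (TATAAA) and the CCAAT box (CCAAT) on either strand.

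HOXC4 and HOXC5: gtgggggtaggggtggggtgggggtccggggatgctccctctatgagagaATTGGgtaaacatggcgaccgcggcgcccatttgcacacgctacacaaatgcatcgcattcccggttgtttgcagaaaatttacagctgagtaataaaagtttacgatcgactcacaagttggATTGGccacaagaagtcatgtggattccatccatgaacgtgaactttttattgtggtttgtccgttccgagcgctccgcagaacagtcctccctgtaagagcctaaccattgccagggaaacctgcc
HOXA11: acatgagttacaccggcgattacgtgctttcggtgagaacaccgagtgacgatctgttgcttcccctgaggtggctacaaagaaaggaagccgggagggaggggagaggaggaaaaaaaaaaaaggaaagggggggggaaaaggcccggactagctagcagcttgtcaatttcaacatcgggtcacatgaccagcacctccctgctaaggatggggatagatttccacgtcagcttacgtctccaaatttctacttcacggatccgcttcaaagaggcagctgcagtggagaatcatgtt
HOXA13: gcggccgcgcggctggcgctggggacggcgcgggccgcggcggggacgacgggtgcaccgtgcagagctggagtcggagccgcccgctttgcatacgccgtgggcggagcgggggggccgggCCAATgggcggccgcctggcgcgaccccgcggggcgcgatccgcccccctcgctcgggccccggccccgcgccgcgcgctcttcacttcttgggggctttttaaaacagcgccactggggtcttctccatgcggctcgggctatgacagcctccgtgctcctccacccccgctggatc
HOXA9: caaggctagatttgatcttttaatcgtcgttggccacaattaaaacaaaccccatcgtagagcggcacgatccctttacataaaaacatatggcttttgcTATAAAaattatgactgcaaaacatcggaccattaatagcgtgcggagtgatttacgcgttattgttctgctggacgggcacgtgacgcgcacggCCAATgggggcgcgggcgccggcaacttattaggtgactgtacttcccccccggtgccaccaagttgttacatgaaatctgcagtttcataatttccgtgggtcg

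Among all windows TATAAA was found in 11.53% and CCAAT in 34.61%. Of the 30 windows of members, 5 held TATAAA (both windows of HOXA10, and those of HOXA3, HOXA9 and HOXD13) and 19 held CCAAT. The composite site of HOX proteins with their PBX partners (TGATTNAT) was found in 2.82% of all windows and in those of HOXA2 and HOXD11. The retinoic acid element, a repeat of AGGTCA after a gap of 5 bases, was found in 0.01% of all windows and in 0 windows of members. These matches describe the letters in the windows and were not tested for binding.

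Several miRNA genes lie inside the clusters, and they are shown because their known targets are HOX transcripts. MIR10A lies next to HOXB4, MIR196A1 between HOXB9 and HOXB13, MIR196A2 between HOXC10 and HOXC9, and MIR196B between HOXA9 and HOXA10. The mature sequences from RefSeq are printed with the seed (bases 2 to 8) in capitals, and miR-196a-5p and miR-196b-5p share their seed.

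miR-10a-5p: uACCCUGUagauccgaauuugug
miR-196a-5p: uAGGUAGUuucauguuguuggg
miR-196b-5p: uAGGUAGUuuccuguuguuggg

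The match to the miR-196 seed (ACTACCT) was found in the 3′ UTR of 8 of the 39 coding members (20.5%), namely HOXA5, HOXA7, HOXA9, HOXB1, HOXB6, HOXB7, HOXB13 and HOXC8, against 7.0% of 19206 genes. That to the miR-10a-5p seed (ACAGGGT) was found in 3 of 39 (7.7%), HOXA3 and HOXB3 among them, against 12.6% of genes. HOXB8, a target that miR-196 cleaves, holds in its 3′ UTR (chr17:48612770-48612791, minus strand) a site in which 21 of the 22 bases pair with miR-196a-5p. The remaining base, in lower case, forms a G-U wobble within the seed, which is why HOXB8 is not among the 8.

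HOXB8 site: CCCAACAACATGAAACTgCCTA

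The libraries measured long RNA, and the rows of the miRNA hairpins of the clusters held only 0 to 16 reads per library, so mature miRNA levels cannot be read from these data.

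HOX transcripts were far more abundant in H1299 than in H460 and A549, and the gap came mainly from the HOX2 to HOX4 stretch and HOXB7 of the HOXB cluster. Throughout, values of a cell line are given with the control library first and the si-MALAT1 library second. The 46 members together held 20392 and 18880 reads in H1299, 6358 and 6477 in H460 and 4644 and 5812 in A549. The levels are TPM, which the authors scaled for length and depth, so they can be compared between genes. Summed over the coding genes of HOXB, the level was 116 and 122 TPM in H1299, 27.6 and 32.6 TPM in A549 and 18.2 and 17.2 TPM in H460. The HOXC sum was 25.9 and 24.7 TPM in H1299, 8.15 and 7.67 TPM in A549 and 5.26 and 4.75 TPM in H460. Both libraries of H1299 thus lay above the other 4 for these clusters. The HOXA sum was 17.6 and 19.5 TPM in H460, 19.6 and 21.0 TPM in H1299 and 12.3 and 17.5 TPM in A549. The HOXD sum was low in every line, at 4.11 and 3.94 TPM in H460, 5.37 and 6.03 TPM in H1299 and 3.63 and 4.58 TPM in A549. In bulk RNA, fewer cells with a transcript and less of it per cell cannot be told apart.

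**Figure D1:**
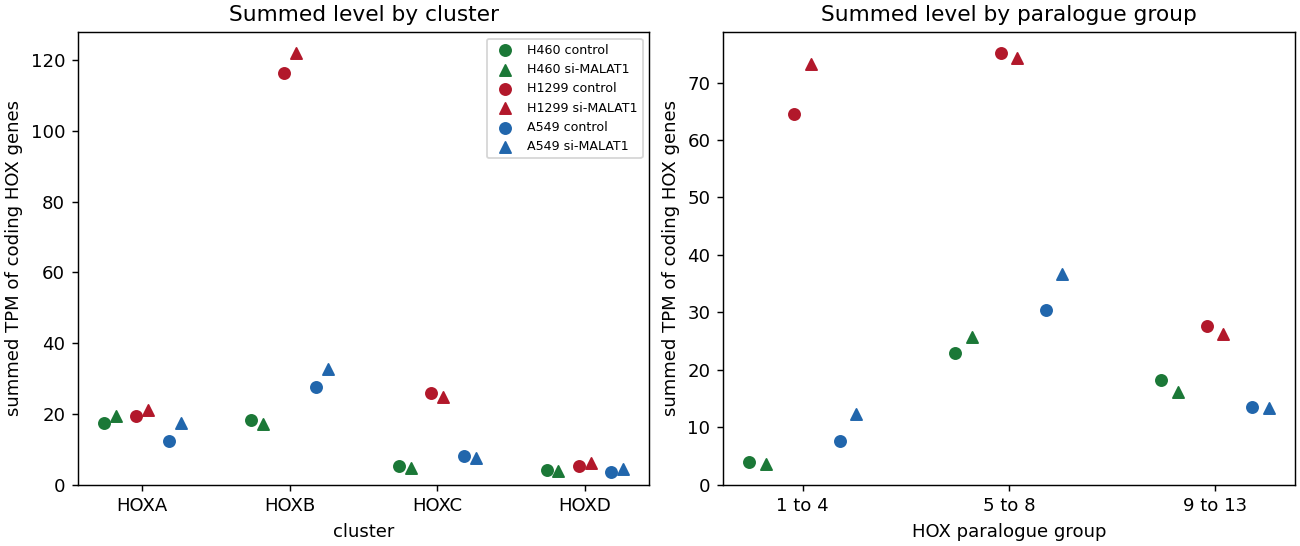
Summed TPM of the coding HOX genes in each of the 6 libraries, by cluster (left) and by paralogue group (right), with circles for control and triangles for si-MALAT1. H1299 stands at 116 and 122 TPM for HOXB, where the other 4 libraries lie between 17.2 and 32.6 TPM.

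Along the clusters, paralogue groups 1 to 4 summed to 64.5 and 73.3 TPM in H1299, 7.64 and 12.3 TPM in A549 and 3.90 and 3.52 TPM in H460. Groups 5 to 8 summed to 75.2 and 74.3 TPM in H1299, 30.5 and 36.6 TPM in A549 and 23.0 and 25.8 TPM in H460. Groups 9 to 13 differed least between the lines, at 27.6 and 26.2 TPM in H1299, 13.5 and 13.4 TPM in A549 and 18.3 and 16.1 TPM in H460. In the H460 control the anterior groups 1 to 4 therefore made up 8.6% of the coding HOX level and the posterior groups 9 to 13 made up 40.5%.

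A level of at least 1 TPM in both libraries was reached by 15 of the 46 members in H460, 23 in H1299 and 17 in A549. Among coding members this was 35.9%, 56.4% and 41%, against 56%, 58.4% and 57.5% of all 19672 protein-coding genes. In the order H460, A549, H1299, the coding members that reached it numbered 4, 6 and 8 of 10 for HOXB and 7, 6 and 6 of 11 for HOXA. For HOXC they numbered 2, 3 and 6 of 9, and for HOXD 1, 1 and 2 of 9. The members at 1 TPM or more in all 6 libraries were HOXA5, HOXA6, HOXA10, HOXB6, HOXB7, HOXB9, HOXC9 and HOXD8. A further 17 members stayed under 1 TPM in all 6, and HOXB1 and HOXC12 had 0 reads in all 6. HOXB7 was the highest coding member of each library.

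**Figure D2:**
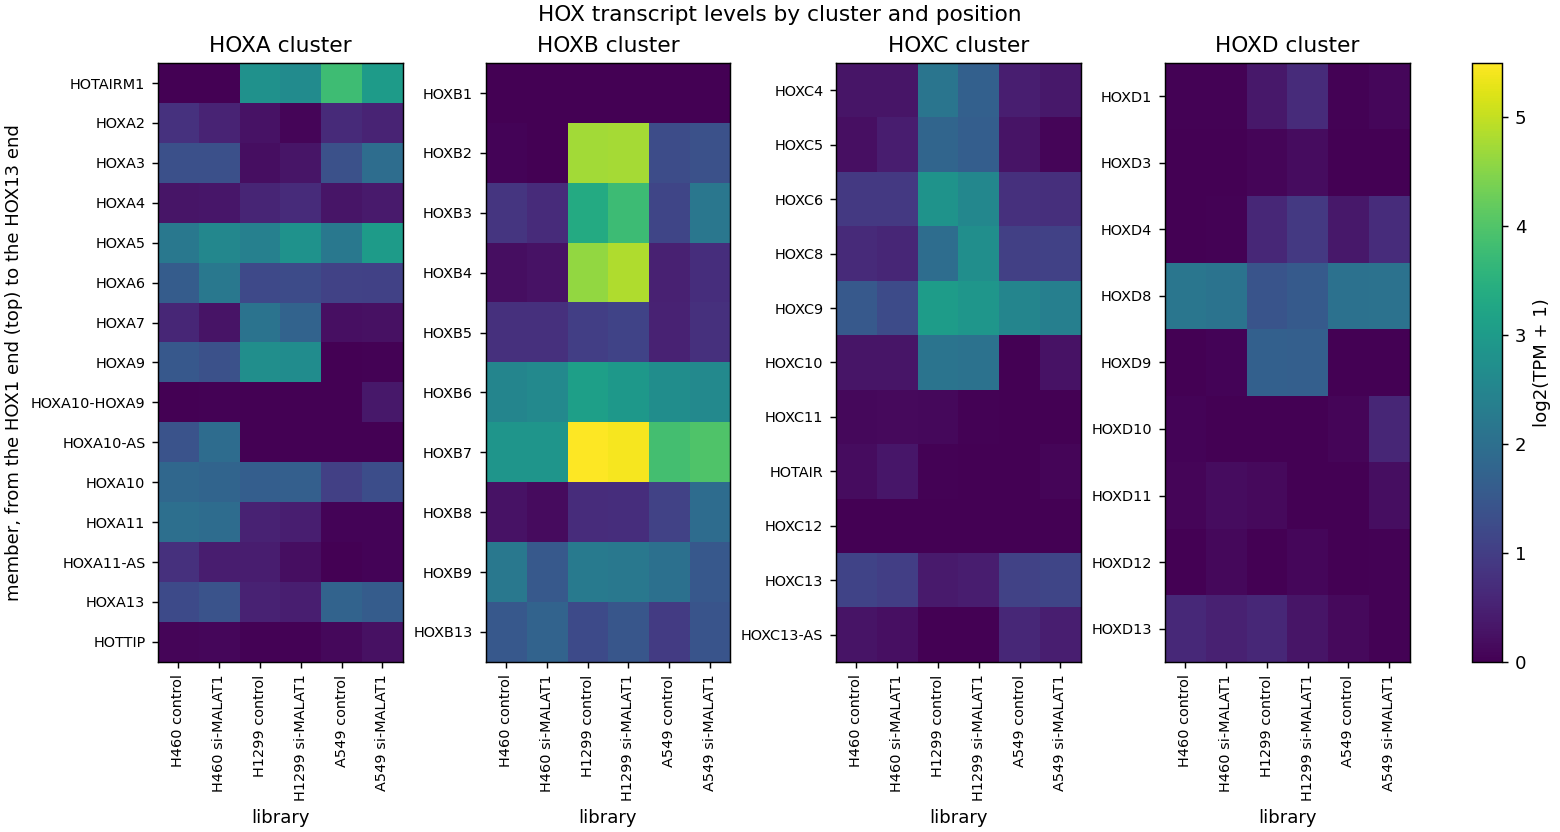
Level of each member reported here as log2(TPM + 1), colour scale at right, in the 6 libraries (columns) by cluster (panels), with members in their order along the cluster from the HOX1 end at the top. HOXB2, HOXB3 and HOXB4 stand out in H1299, while HOXB7 is the brightest coding gene in every column.

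The cell lines were compared with edgeR's quasi-likelihood test over 21771 genes, with treatment as a covariate and Benjamini-Hochberg adjustment over all genes. The libraries of a line are a control and a si-MALAT1 culture, not repeats of 1 condition, so p measures their spread after the mean treatment effect. Of the 46 members, 41 passed the filter on low counts, and the other 5 (HOXA10-HOXA9, HOXB1, HOXC12, HOXD10 and HOXD12) were not tested. The 3 contrasts share libraries and are not independent. Comparing H1299 with H460, 18 of the 41 tested members were higher in H1299 (43.9%), where 25.9% of the genes tested were, and 10 were lower (24.4%), where 24.8% of the genes tested were. Comparing H1299 with A549, 16 were higher (39%) and 8 lower (19.5%) in H1299, against 24.4% and 22.8% of the genes tested. Comparing H460 with A549, 9 were higher and 9 lower in H460 (22% each), against 17.9% and 17.4% of the genes tested. The median log2 difference of the tested members was 0.269 for H1299 against H460 (0.035 over all genes), 0.805 for H1299 against A549 (0.057) and 0.202 for H460 against A549 (0.007). On log2(TPM + 1) with limma the calls over all genes were 7903 higher and 3947 lower for H1299 against H460, where edgeR gave 5637 and 5403. For H460 against A549 they were 2643 and 5597, where edgeR gave 3900 and 3788. Among the members limma gave 19 higher and 10 lower in the former and 8 and 8 in the latter.

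At the HOX1 end of HOXA, the lncRNA HOTAIRM1, known from myeloid cells, was without reads in H460. Its reads were 0 and 0 in H460, 412 and 247 in A549 and 318 and 251 in H1299. The H460 libraries thus lay below the other 4. Taking 3 reads per library as the limit of detection, HOTAIRM1 was at least 82.3-fold higher in H1299 and at least 146-fold higher in A549 than in H460 (adjusted p = 0.000329 and 0.000414, edgeR). Between A549 and H1299 HOTAIRM1 did not pass (adjusted p = 0.0963), except in the fit without the H460 libraries.

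HOXA3, which patterns the pharyngeal arches, was lowest in H1299. Its level was 1.52 and 1.52 TPM in H460, 0.144 and 0.246 TPM in H1299 and 1.55 and 2.93 TPM in A549. Both H1299 libraries lay below the other 4, by 2.45 on the log2 scale against H460 (adjusted p = 0.00167, edgeR) and by 2.87 against A549 (adjusted p = 0.0011). HOXA2, the selector gene of the second pharyngeal arch, had 70 and 47 reads in H460, 35 and 31 in A549 and 20 and 5 in H1299, and its H1299 level was lower in both contrasts (adjusted p = 0.0184 and 0.0359). HOXA4 stayed between 0.240 and 0.608 TPM and passed the test in none of the contrasts.

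HOXA5 and HOXA6, neighbours in the middle of the cluster, were present at 1 TPM or more in every library. HOXA5, which is needed for normal lung development in the mouse, measured 3.60 and 4.82 TPM in H460, 4.21 and 6.02 TPM in H1299 and 3.61 and 7.09 TPM in A549. The cell lines overlapped, and the 3 contrasts between them gave adjusted p of 0.81 to 1 (edgeR), while the si-MALAT1 library was the higher one in each line. HOXA6 measured 2.03 and 3.62 TPM in H460, 1.32 and 1.37 TPM in H1299 and 1.13 and 1.10 TPM in A549, so both H460 libraries lay above the rest (log2 difference 1.60 to A549, adjusted p = 0.0303, and 1.38 to H1299, adjusted p = 0.0339, a call lost without the filter on low counts). HOXA7, a gene of the thoracic region, measured 3.25 and 2.38 TPM in H1299 and between 0.162 and 0.514 TPM in the other 4 libraries. It was higher in H1299 than in H460 by 2.62 (adjusted p = 0.00288) and than in A549 by 3.86 (adjusted p = 0.00115). Of its exonic bases, 74.8% are also covered by HOXA-AS3 on the other strand, which had 0 to 5 reads per library.

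At the posterior end of HOXA, A549 stood apart for HOXA9 and HOXA11. HOXA9, the partner of MEIS1 in myeloid leukaemia, had 226 and 196 reads in H460, 0 and 2 in A549 and 669 and 560 in H1299. With only 2 reads in A549 the ratio is uncertain, at 407.1 for H1299 over A549 (95% exact counting interval 112.4 to 3365) and 160.4 for H460 over A549 (44.14 to 1329), with adjusted p of 0.000195 and 0.000516 in edgeR. The overlapping transcript HOXA10-HOXA9, which shares 72.4% of the exonic bases of HOXA9 on the same strand, had 23 reads in A549 after si-MALAT1. The ratios and intervals leave these reads out and would be lower if some of them came from HOXA9, which was not tested. HOXA9 was also higher in H1299 than in H460, by 1.33 on the log2 scale (adjusted p = 0.0196). HOXA11, required for the forearm, kidney and uterus, had 466 and 456 reads in H460, 4 and 5 in A549 and 67 and 51 in H1299. The lines formed 3 separate steps, with H460 above H1299 by 3.18 (adjusted p = 0.00049, edgeR) and H1299 above A549 by 3.07 (adjusted p = 0.00176) on the log2 scale. HOXA11-AS, which starts in the HOXA11 window printed above, had 64 and 33 reads in H460, 0 and 3 in A549 and 32 and 13 in H1299. It ranked the lines as HOXA11 did, and it passed the test for H460 against A549 (adjusted p = 0.0332) but not in the contrasts with H1299 (0.264 and 0.0831).

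HOXA10, which acts in the uterus and in blood progenitors, measured 2.55 and 2.41 TPM in H460, 2.13 and 2.19 TPM in H1299 and 1.05 and 1.47 TPM in A549. A549 was lower than H460 by 1.35 (adjusted p = 0.0115, edgeR) and lower than H1299 by 0.81 (adjusted p = 0.0493), and the latter call was lost without the H460 libraries, without the filter on low counts, with limma on TPM and with treatment left out of the design. HOXA10-AS, on the other strand of HOXA10, had 111 and 199 reads in H460 and 0 reads in the 4 libraries of H1299 and A549. This was at least 59.7-fold above H1299 and at least 39.5-fold above A549. HOXA10 and HOXA10-AS share 608 exonic bases, 52.4% of those of HOXA10-AS, and the strand setting of the counting is not given in the sources used here. H1299 had 313 and 280 reads of HOXA10, close to the 376 and 371 of H460, beside its 0 and 0 reads of HOXA10-AS. HOXA10-HOXA9, a readthrough transcript that covers 72.4% of the exonic bases of HOXA9, had 23 reads in A549 after si-MALAT1, 4 in H460 after si-MALAT1 and 0 in the other 4 libraries.

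HOXA13 closes the cluster and marks the hindgut and the distal limb. It measured 1.36 and 1.63 TPM in H460, 0.450 and 0.386 TPM in H1299 and 2.38 and 2.03 TPM in A549. Both H1299 libraries were the lowest, by 2.19 on the log2 scale against H460 (adjusted p = 0.00133, edgeR) and by 2.45 against A549 (adjusted p = 0.00105). HOTTIP, which lies beyond HOXA13 and brings the MLL complex to the posterior HOXA genes through WDR5, had 14 and 19 reads in H460, 15 and 34 in A549 and 5 and 7 in H1299. HOTTIP was lower in H1299 than in A549 (log2 difference -2.52, adjusted p = 0.0467) and did not pass against H460 (-1.65, adjusted p = 0.14).

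**Figure D3:**
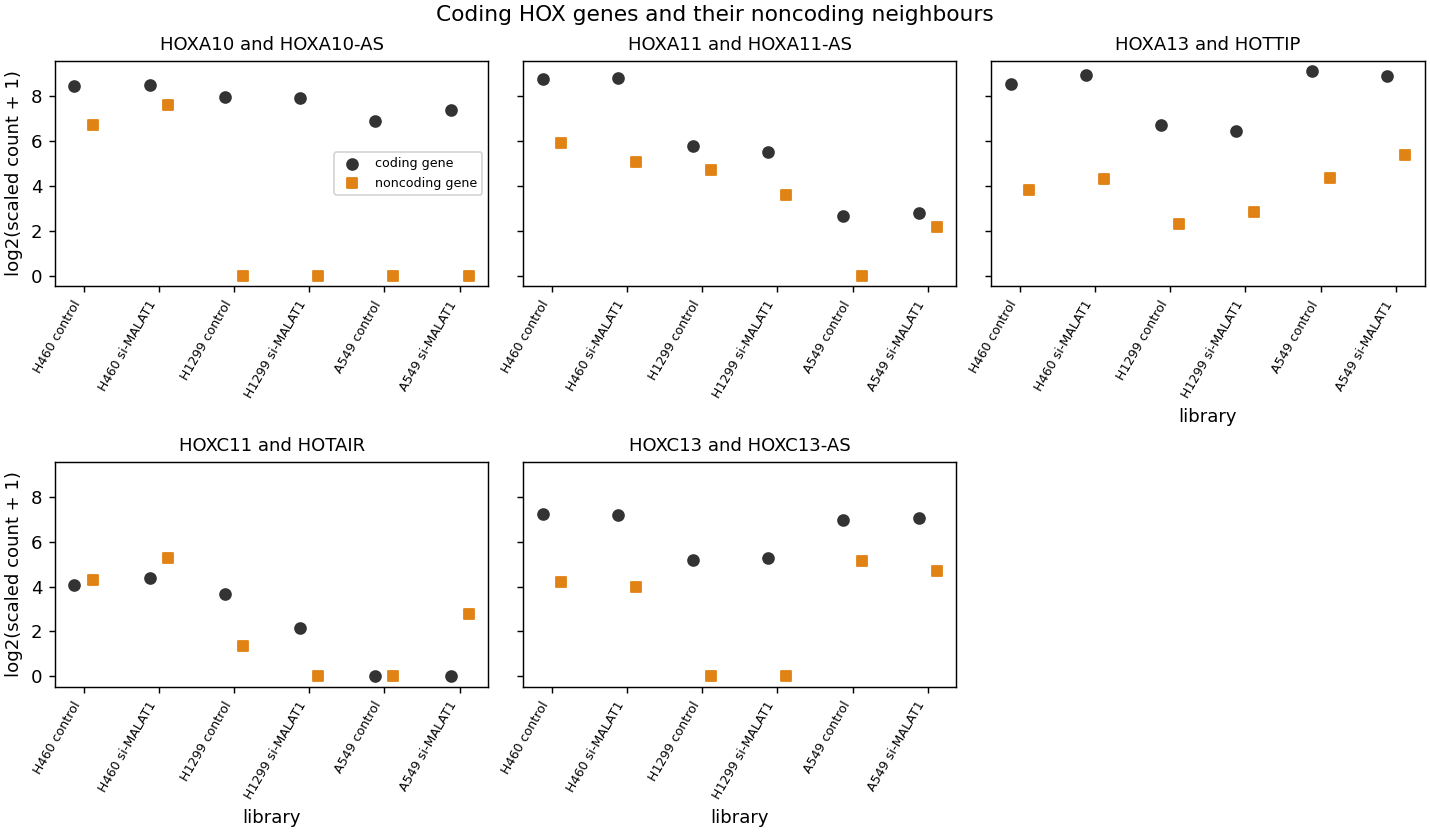
Scaled read counts as log2(count + 1) of 5 coding HOX genes (circles) and the noncoding member next to each (squares) in the 6 libraries. HOXA10-AS is at 0 outside H460 and HOXC13-AS is at 0 in H1299, while HOXA10 and HOXC13 have reads in every library.

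In HOXB, HOXB2, HOXB3 and HOXB4 were the genes with the widest gaps between the lines. HOXB2, which patterns the hindbrain and the facial nerve, measured 25.4 and 26.0 TPM in H1299, 1.44 and 1.59 TPM in A549 and 0.038 and 0 TPM in H460, where it had 4 and 0 reads. HOXB4, known for the self-renewal of blood stem cells, measured 23.4 and 27.7 TPM in H1299, 0.414 and 0.650 TPM in A549 and 0.152 and 0.204 TPM in H460. Both genes followed the order H1299, A549, H460 with no overlap. HOXB4 was higher in H1299 than in H460 by 6.79 (adjusted p = 2.26e-05, edgeR) and than in A549 by 5.53 (adjusted p = 4.27e-05), while HOXB2 exceeded A549 by 4.14 (adjusted p = 0.000479) and H460, with its 4 reads, at an adjusted p of 8.95e-05. HOXB4 was also lower in H460 than in A549 by 1.26 (adjusted p = 0.0134), a call lost without the H1299 libraries and with limma on TPM.

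HOXB3 measured 9.29 and 12.7 TPM in H1299, 1.22 and 3.55 TPM in A549 and 0.806 and 0.609 TPM in H460. Its reads were 3788 and 4096 in H1299, 443 and 716 in A549 and 501 and 365 in H460, the highest count of any member in H1299. H1299 was above H460 by 2.97 (adjusted p = 0.00029, edgeR) and above A549 by 2.19 (adjusted p = 0.000908), whereas the gap of 0.78 between H460 and A549 (adjusted p = 0.0468) was lost without the H1299 libraries, without the filter on low counts and with limma on TPM. HOXB1, the neighbour at the end of the cluster, had 0 reads throughout, so the high stretch of H1299 began at HOXB2.

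HOXB5, a lung mesenchyme gene, stayed low at 0.439 to 1.14 TPM and passed in no contrast of the edgeR fit, though it did for H1299 against A549 with limma on TPM. HOXB6 measured 4.64 and 4.96 TPM in H460, 7.54 and 6.61 TPM in H1299 and 5.50 and 5.05 TPM in A549, and it passed in no contrast either (adjusted p = 0.172 to 0.554, edgeR), except for H1299 against H460 with limma on TPM. HOXB7, a gene often raised in carcinomas, measured 6.24 and 6.33 TPM in H460, 44.1 and 41.7 TPM in H1299 and 13.4 and 14.7 TPM in A549. The lines did not overlap, and H1299 exceeded H460 by 2.42 (adjusted p = 0.000124) and A549 by 1.56 (adjusted p = 0.00062), with H460 below A549 by 0.86 (adjusted p = 0.00757). In H1299 control cells HOXB7 lay above 92.2% of all protein-coding genes, and in H460 control cells above 62.4%.

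HOXB8, whose miR-196 site is printed above, was higher in A549 than in both other lines. It measured 1.13 and 2.83 TPM there, 0.620 and 0.639 TPM in H1299 and 0.202 and 0.117 TPM in H460, with no overlap between the lines. A549 exceeded H460 by 2.77 on the log2 scale (adjusted p = 0.00358, edgeR) and H1299 by 1.13 (adjusted p = 0.0454), and the latter call was lost with DESeq2 and without the filter on low counts. HOXB9 measured 3.58 and 1.89 TPM in H460, 3.75 and 3.58 TPM in H1299 and 3.10 and 1.86 TPM in A549, and it passed in no contrast between lines. HOXB13, a prostate and hindgut gene that lies far from the rest of the cluster, measured 1.86 and 2.37 TPM in H460, 1.37 and 1.76 TPM in H1299 and 0.945 and 1.69 TPM in A549. H460 exceeded A549 by 1.02 (adjusted p = 0.0283) and H1299 by 0.79 (adjusted p = 0.0452), and both calls were lost with limma on TPM and with treatment left out of the design. The call against H1299 was also lost without the A549 libraries and without the filter on low counts.

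In HOXC, HOXC4, HOXC5, HOXC6, HOXC8 and HOXC10 were higher in H1299 than in both other lines, and the posterior HOXC13 was lower. HOXC4 measured 3.40 and 2.22 TPM in H1299, HOXC5 2.47 and 2.14 TPM and HOXC6 6.09 and 4.84 TPM, against at most 0.876 TPM for any of the 3 in the other 4 libraries. The 3 genes share 527 exonic bases (22.4% to 24.6% of each), so their counts can be split between them only in part. HOXC6 was higher in H1299 than in H460 by 2.36 (adjusted p = 0.00168, edgeR) and than in A549 by 2.92 (adjusted p = 0.00102), and HOXC4 by 2.95 and 2.87 (adjusted p = 0.00161 and 0.0021). For HOXC5 the differences were 2.73 and 3.93 (adjusted p = 0.0165 and 0.00663).

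HOXC8 measured 0.573 and 0.501 TPM in H460, 2.88 and 5.55 TPM in H1299 and 1.05 and 1.08 TPM in A549, and HOXC10 had 383 and 318 reads in H1299, 29 and 29 in H460 and 0 and 17 in A549. For both genes the H1299 libraries lay above the other 4 (HOXC8 by 2.56 and 1.87 against H460 and A549, adjusted p = 0.00179 and 0.0059, edgeR, and HOXC10 with adjusted p = 0.0161 and 0.00735). HOXC9, a gene of the thoracic motor neurons, measured 1.92 and 1.40 TPM in H460, 7.25 and 6.42 TPM in H1299 and 4.70 and 4.18 TPM in A549. H460 was below H1299 by 1.70 (adjusted p = 0.00183) and below A549 by 1.14 (adjusted p = 0.0125), and the difference of 0.56 between H1299 and A549 did not pass (adjusted p = 0.0848) except with limma on TPM.

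HOXC13, which controls hair and nail keratins, measured 1.16 and 1.03 TPM in H460, 0.321 and 0.364 TPM in H1299 and 1.13 and 1.22 TPM in A549. It was lower in H1299 by 2.02 against H460 (adjusted p = 0.00406, edgeR) and by 1.81 against A549 (adjusted p = 0.00676). HOXC13-AS, which shares 172 exonic bases with HOXC13 on the other strand, had 19 and 15 reads in H460, 26 and 21 in A549 and 0 and 0 in H1299, so it was at least 6.47-fold lower in H1299 than in H460 and at least 11.9-fold lower than in A549. HOTAIR, the lncRNA from between HOXC11 and HOXC12 that binds Polycomb complexes, was scarce, with 20 and 39 reads in H460, 0 and 5 in A549 and 2 and 0 in H1299. Its contrasts did not pass (adjusted p = 0.0563 for H1299 against H460, 0.14 for H460 against A549 and 0.573 for H1299 against A549). HOXC11 had at most 20 reads and was at least 4.69-fold higher in H460 than in A549, where it had 0 reads (adjusted p = 0.0482).

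In HOXD, HOXD8 was at 1 TPM or more in every library and HOXD9 in H1299 only. HOXD8 measured 3.45 and 3.24 TPM in H460, 1.67 and 1.93 TPM in H1299 and 3.16 and 3.20 TPM in A549. The H1299 libraries were the lowest, by 1.15 against H460 (adjusted p = 0.00724, edgeR) and by 0.86 against A549 (adjusted p = 0.0228). HOXD9, a gene of the lumbar region and proximal limb, measured 2.22 and 2.18 TPM in H1299, above HOXD8 there. It had 240 and 206 reads in H1299, 0 and 4 in H460 and 0 and 0 in A549, at least 49-fold more in H1299 than in A549 (adjusted p = 0.00341). HOXD4 had 154 and 202 reads in H1299, 50 and 93 in A549 and 0 and 6 in H460, and H460 was lower than H1299 (adjusted p = 0.00192) and A549 (adjusted p = 0.00528). HOXD13, which shapes the digits, had 77 and 67 reads in H460, 10 and 2 in A549 and 76 and 30 in H1299, and A549 was the lowest (adjusted p = 0.0154 against H460 and 0.0298 against H1299). HOXD1 had 31 and 57 reads in H1299 and 2 to 5 elsewhere (adjusted p = 0.0191 and 0.0318), and HOXD3 had 13 and 30 reads in H1299 and 0 elsewhere, without passing (adjusted p = 0.0536 and 0.0654). HOXD10 had 36 reads in A549 after si-MALAT1 and at most 5 in any other library, HOXD11 had at most 15 and HOXD12 at most 13.

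After si-MALAT1 no member passed the test over the 3 cell lines. In edgeR's paired quasi-likelihood test 0 of 41 tested members and 0 of 21771 genes (0%) had an adjusted p under 0.05, while 2 members and 2836 genes (13%) had an unadjusted p under 0.05. DESeq2 called 1459 genes and 0 members, and limma on log2(TPM + 1) called 1 gene and 0 members. Of the tested members, 24 had a log2 fold change above 0 and 17 below 0, and their median was 0.067 against 0.009 over all genes. The median was -0.020 without the H460 libraries, 0.097 without those of H1299 and 0.016 without those of A549, so its sign turned without H460, and 0 members were called in each case. The paired fit left 2 residual degrees of freedom.

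HOXA5 and HOXB9 were the members with an unadjusted p under 0.05. HOXA5 went from 211 to 462 reads in A549, from 351 to 488 in H460 and from 407 to 507 in H1299. This was higher after si-MALAT1 in 3 of 3 lines, with a log2 fold change of 0.66 ± 0.28 (SD, n = 3) within the lines, and the edgeR estimate of 0.65 had an adjusted p of 0.244. HOXB9, a gene of the thorax and mammary gland, went from 281 to 188 reads in A549, from 540 to 296 in H460 and from 561 to 466 in H1299. It was lower in 3 of 3 lines, by a log2 fold change of -0.55 ± 0.36 (SD, n = 3), with an adjusted p of 0.34. HOXB13 was also higher in 3 of 3 lines, from 331 to 437, 240 to 269 and 101 to 200 reads, and had an adjusted p of 0.387.

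Within each line there was 1 library per condition, so changes there have no replicate check. They were taken as log2 of the scaled count plus 1, with a 95% exact counting interval, for members with a mean of at least 50 reads in the line. In H460, 2 of 21 such members were at least 1.5-fold higher, HOXA6 and HOXA10-AS, where 6.59% of all genes with as many reads were, and 1 was as much lower, HOXB9, where 6.81% of all genes were. HOXA6 went from 117 to 217 reads (log2 fold change 0.97, interval 0.64 to 1.31) and HOXA10-AS from 111 to 199 (0.92, interval 0.58 to 1.27). In H1299, HOXA3 and HOXC8 of 30 members were higher, where 10.5% of all genes were, and HOXC4 and HOXD13 were lower, where 8.53% of all genes were. HOXC8 went from 402 to 677 reads (0.88, interval 0.70 to 1.06) and HOXC4 from 394 to 224 (-0.68, interval -0.93 to -0.44).

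In A549, 5 of 18 members were at least 1.5-fold higher (27.8%), where 8.26% of all genes were. They were HOXA3, HOXA5, HOXB2, HOXB13 and HOXD4. On log2(TPM + 1), HOXA3 and HOXA5 also passed this fold (0.62 and 0.81). HOXB13, HOXD4 and HOXB2 did not (0.47, 0.33 and 0.09), and the added 1 weighs most at low TPM. HOXA3 went from 284 to 505 reads (log2 fold change 0.68, interval 0.47 to 0.90) and HOXD4 from 50 to 93 (0.74, interval 0.24 to 1.28). Lower were HOTAIRM1 and HOXB9, where 8.27% of all genes were. HOTAIRM1 went from 412 to 247 reads (-0.88, interval -1.12 to -0.65). On log2(TPM + 1) HOTAIRM1 was at -0.78 and HOXB9 at -0.52, the latter short of a fold of 1.5. The median over the 18 members was 0.22 against 0.01 over all genes, where H460 gave 0.06 over 21 members and H1299 gave -0.11 over 30. The A549 libraries were also the shallowest, and the keratin genes KRT8 and KRT18 were lower there after si-MALAT1 (113159 to 56171 and 144327 to 68068 reads), as was KRT7, while the epithelial genes EPCAM, CDH1 and KRT19 were higher (196 to 485, 4693 to 7373 and 44 to 121 reads). The part of these differences in the HOX values was not tested. For HOXB3 and HOXB8 in A549 the units disagreed in size, since reads went from 443 to 716 and from 162 to 243 while TPM went from 1.22 to 3.55 and from 1.13 to 2.83. Both passed a fold of 1.5 on log2(TPM + 1) (1.03 and 0.85) but not on scaled counts. For HOXB2 the units disagreed the other way, with reads from 59 to 100 and TPM from 1.44 to 1.59.

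**Figure D4:**
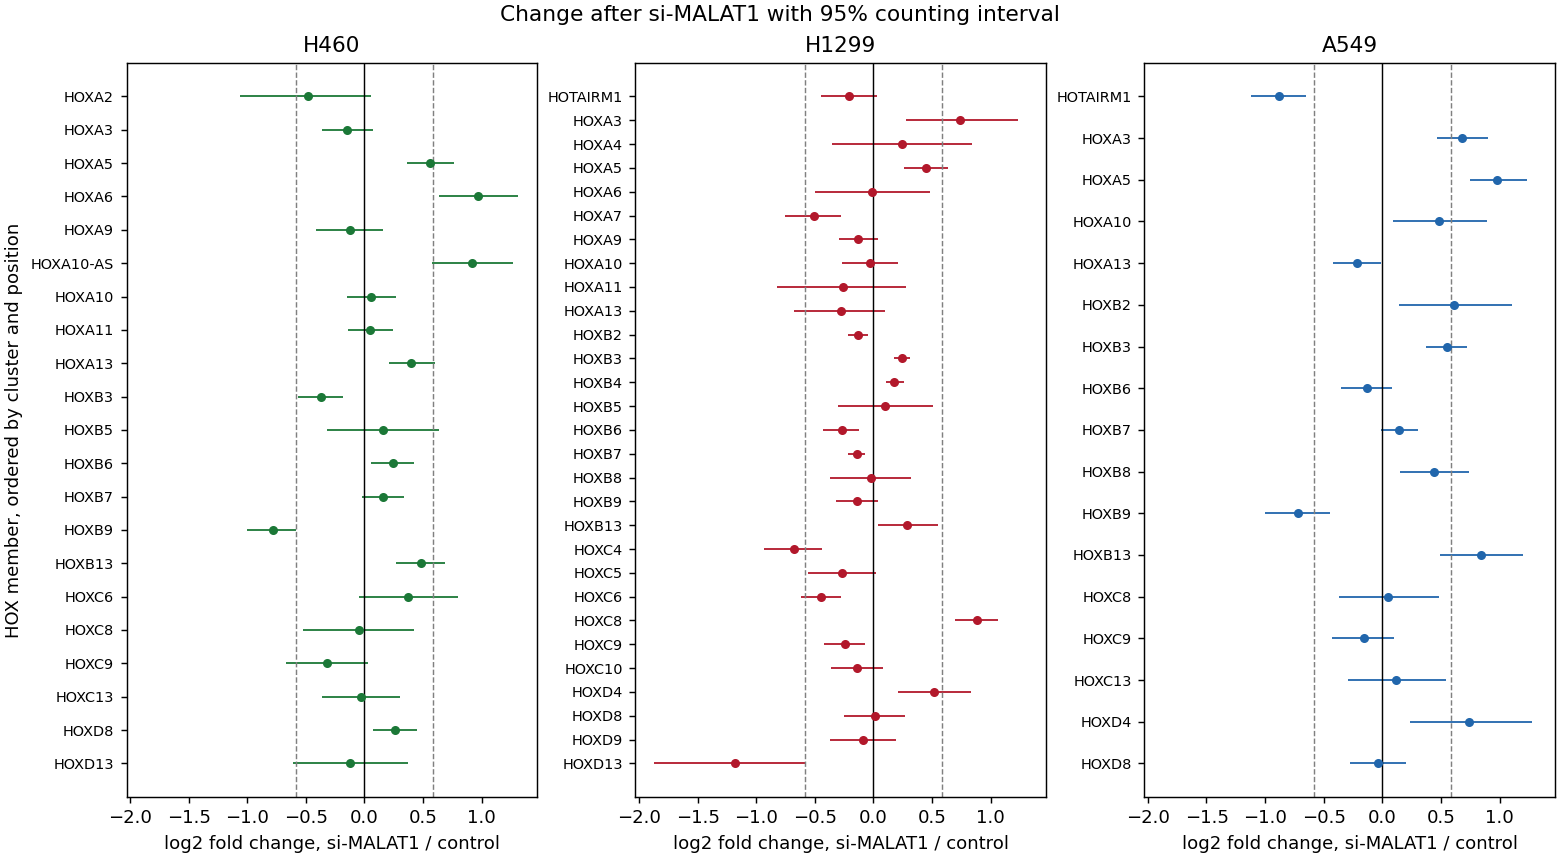
Log2 fold change of si-MALAT1 over control within each cell line (panels) for members reported here with a mean of at least 50 reads there, with 95% exact counting intervals, and dashed lines at a fold change of 1.5 in either direction. HOXA5 lies to the right of 0 and HOXB9 to the left of 0 in all 3 panels, as do HOXB13 (right) and HOXC9 (left).

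Some of the genes that act with or on HOX proteins differed between the lines, as did many of all genes tested, and none of those listed passed for si-MALAT1. Of the 8 tested cofactor genes of the PBX, MEIS and PKNOX families, 0 passed for si-MALAT1 (median log2 fold change 0.11). In H1299, 5 were higher and 3 lower than in A549, against 24.4% and 22.8% of all genes tested. PBX3, whose protein binds DNA together with HOX proteins, measured 36.0 and 40.6 TPM in H1299, 3.87 and 4.25 TPM in H460 and 6.07 and 8.46 TPM in A549. The line with the highest HOXB2 to HOXB7 levels thus had the highest PBX3 level (log2 difference 2.90 to H460, adjusted p = 6.15e-05, edgeR). MEIS3 was the reverse, at 0.32 and 0.19 TPM in H1299, 4.29 and 3.78 TPM in H460 and 23.5 and 19.3 TPM in A549.

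Of 25 chromatin regulators of the clusters (MLL complex, Polycomb, CTCF and cohesin genes), 0 passed for si-MALAT1, 12 were higher and 4 lower in H1299 than in H460, and 9 were higher and 5 lower than in A549. Over all genes tested, 25.9% were higher and 24.8% lower in H1299 than in H460, and 24.4% were higher and 22.8% lower than in A549. The Polycomb gene CBX2 measured 1.77 and 1.46 TPM in H1299, 12.8 and 14.0 TPM in H460 and 7.95 and 7.68 TPM in A549, and PHC1 measured 18.1 and 20.6 TPM in H1299 against 2.68 to 4.73 TPM in the other 4 libraries. Of 13 tested retinoid and caudal genes, 0 passed for si-MALAT1, 5 were higher and 5 lower in H1299 than in H460, and 3 were higher and 8 lower than in A549. The retinoic acid synthesis gene ALDH1A2 had 248 and 311 reads in H1299 and 0 in the other 4 libraries, while ALDH1A1 measured 5296 and 3990 TPM in A549, 170.7 and 150.4 TPM in H460 and 0.10 and 0.84 TPM in H1299.

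Other transcripts of the clusters, which the symbol rule did not take, were also compared. Of the 16 such transcripts measured, 7 were tested, with 0 passing for si-MALAT1. In H1299, 5 were higher and 0 lower than in H460, against 25.9% and 24.8% of all genes tested. HOXB-AS1, which overlaps HOXB3 by 279 exonic bases on the other strand, had 422 and 506 reads in H1299, 44 and 95 in A549 and 0 and 0 in H460, the same order as HOXB2 and HOXB4. HOXA-AS2 had 161 and 186 reads in A549, 21 and 24 in H460 and 8 and 14 in H1299. HAGLR, beside HOXD1, had 41 and 60 reads in H460, 17 and 79 in A549 and 118 and 269 in H1299, higher after si-MALAT1 in 3 of 3 lines without passing the test (log2 fold change 1.3, adjusted p = 0.239).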

How the data were processed

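Total RNA of 6 cultures, a control and a si-MALAT1 culture of each of 3 NSCLC cell lines, was sequenced after ribosomal RNA removal with a stranded kit. Per the labels, reads were processed with bcl2fastq 2.20.0, Trimmomatic, HISAT2 2.1.0 and StringTie 1.3.4b, and the table is on GRCh38 with an NCBI annotation. The authors deposited whole-number read counts, not normalized, and TPM and FPKM scaled for length and depth. The deposited annotation gave the positions. Strand use in counting is not given in the sources used here. A further 18 value columns belong to no sample listed for this series and were not used.

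Counts were tested with edgeR 4.0.16 (R 4.3.3; TMM, filterByExpr by the design, quasi-likelihood test, cell line and treatment as terms, adjusted p under 0.05 by Benjamini-Hochberg over 21771 genes). Libraries of a cell line were paired, since deviations from the group means correlated at 0.90, 0.93 and 0.90 within H460, H1299 and A549. Whether cultures were independent is not stated. In simulated counts with 200 changed genes the test recovered 91% of them for si-MALAT1 (20726 genes) and 87% for H1299 against H460 (20690 genes). The changed genes had a mean of at least 50 reads, and counts were drawn from 1 level per gene for all lines. The simulated si-MALAT1 change was the same in every line and larger than the edgeR estimate of any tested member. The recovery thus does not give the power to find changes as small as those of the members. Within a line, counts were scaled by RLE factors, 1 was added and log2 was taken, and Clopper-Pearson intervals cover counting error only. Depth ranged from 42506818 to 68515992 reads. Fold bounds use a floor of 3 reads per library.

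Alternatives were DESeq2 1.42.0, RLE factors, no filter, a filter by treatment group (chosen after seeing the data), limma 3.58.1 on log2(TPM + 1), other thresholds and leaving out each cell line. Values of each library are given for members with a mean of at least 50 reads, and others are named where a library holds at least 10 reads. Lists of cofactors, chromatin regulators, retinoid and caudal genes, other cluster transcripts, flanking genes and other homeobox genes came from general knowledge. Members and lists were chosen with earlier results of these data known. The 3′ UTRs are those of canonical GENCODE transcripts. Some genes are not reported here by name, though counts and sums include them.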

Additional observations from a re-analysis of the deposited data

How the results depend on the processing

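For si-MALAT1, 0 members were called under every alternative run. Among members with a mean of at least 50 reads, 248 of 248 results stayed on their side of the threshold. The number of all genes called was 0 with edgeR, 1459 with DESeq2, 1 with limma on log2(TPM + 1), 1 with the filter by treatment group and 0 to 163 when a cell line was left out, with 163 without H460. The cause was not tested. Without the replicate block, with the filter by treatment group, 0 genes were called, against 1 (MALAT1) for the paired fit at that filter, and 0 members were called with or without pairing. Among members with a mean of at least 50 reads, which did not pass for si-MALAT1, the sign of the change differed from the main fit in 27 results of 15 members.

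Calls between cell lines kept to within 1.5 times of their counts under every alternative run. Of the single results of the 30 members with a mean of at least 50 reads, 599 stayed on their side, 19 lost and 4 gained a call. Those decided by 1 cell line are named in the report. Calls of members with fewer reads, such as HOXA2, HOXA11-AS, HOTTIP and HOXC11, are not in these totals. Without the filter on low counts, 15 members were higher and 5 lower in H1299 than in A549, against 16 and 8 with it. For H460 against A549 they were 7 and 8, against 9 and 9, and for H1299 against H460 18 and 8, against 18 and 10. On log2(TPM + 1) the median of all genes shifted to 0.155 for H1299 against H460 and to -0.107 for H460 against A549, from 0.035 and 0.007.

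Members past a fold change of 1.5 within a line numbered 3 in H460, 4 in H1299 and 7 in A549. Raising the limit to 1.5 on the log2 scale left 0, 0 and 0, a minimum of 1 read gave 15, 12 and 21, and log2(TPM + 1) gave 1 in H1299. Members at 1 TPM numbered 15, 23 and 17. At 0.1 TPM there were 32 in H460 and 27 in A549, at 5 TPM 1, 8 and 3, and at an FPKM of 1 there were 11 in A549. Low depth limits members such as HOXD11 and HOXD12, with at most 15 and 13 reads, for which differences were not detectable here.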

Other observations

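Genes beside the clusters and homeobox genes outside them were also measured. Of 10 tested flanking genes 0 passed for si-MALAT1 (median log2 fold change 0.23). In H1299, 3 were higher and 3 lower than in H460, near the 25.9% and 24.8% of all genes tested. TTLL6, beyond HOXB13, had 623 and 1311 reads in A549, 14 and 10 in H460 and 25 and 35 in H1299, so A549 was higher than H460 (adjusted p = 0.000145, edgeR) and than H1299 (adjusted p = 0.000141). HIBADH, beyond HOXA13, measured 15.9 and 16.4 TPM in H1299, 62.3 and 61.9 TPM in H460 and 71.7 and 71.6 TPM in A549. CBX5, which lies near HOXC4 and encodes heterochromatin protein HP1 alpha, was higher in H1299 than in H460 by 0.73 on the log2 scale (adjusted p = 0.00645). EVX1 and EVX2, which adjoin HOXA13 and HOXD13, had at most 11 and 3 reads.

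Of 12 other homeobox genes 4 were tested, and 0 passed for si-MALAT1 (median log2 fold change -0.41). GBX2, a midbrain and hindbrain boundary gene, had 108 and 29 reads in H460, 95 and 86 in A549 and 292 and 150 in H1299. Its count was lower after si-MALAT1 in 3 of 3 lines, with a log2 fold change of -0.96 and an adjusted p of 0.347. EN1 had 18 and 67 reads in H1299, 12 and 28 in A549 and 0 in H460. Of the 6 epithelial marker genes the summed level was 1246 and 896 TPM in H460, 481 and 459 TPM in H1299 and 5509 and 2454 TPM in A549. In A549 KRT7, KRT8 and KRT18 were lower after si-MALAT1, while EPCAM (3.61 to 8.04 TPM), CDH1 (27.8 to 39.4 TPM) and KRT19 (0.89 to 2.23 TPM) were higher. That of the 4 mesenchymal genes was 1876 and 1524, 1887 and 2203, and 691 and 966 TPM, and neither was tested against the HOX levels.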
